A study of Homo sapiens with 6 samples.

Results

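IGF2BP1, IGF2BP2, IGF2BP3 and QKI encode RNA-binding proteins of the KH-domain class, and their own transcripts were followed here through 6 PAR-CLIP libraries. A site was taken for a gene when its midpoint lay on the gene's strand inside the GENCODE span of that gene on the hg19 build, and it was assigned to a coding, UTR, noncoding exon or intron part of it. These are 4 of 20176 protein-coding genes, and they held 7888 of the 10639684 sites in the 6 tables. All 7888 site sequences in the tables equal GRCh37 at their coordinates. On the other strand, IGF2BP2-AS1 lies within IGF2BP2 and MALSU1 overlaps the end of IGF2BP3. IGF2BP1 is at chr17:47074747-47133507 on the plus strand, with 6704 bp of 3'UTR and 49130 bp of intron. IGF2BP2 is at chr3:185360918-185542830 on the minus strand, with 2404 bp of 3'UTR and 176583 bp of intron. IGF2BP3 is at chr7:23349828-23510110 on the minus strand, with 2156 bp of 3'UTR and 151748 bp of intron. QKI is at chr6:163835032-163999624 on the plus strand, with 14105 bp of 3'UTR over all its transcripts and 147229 bp of intron.

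PAR-CLIP marks RNA that touches a protein. Cells take up 4-thiouridine (4SU), long-wave UV light joins it to bound protein, RNase T1 trims the RNA, and a crosslinked 4SU is sequenced as C in place of T. All libraries came from HEK293, an established human embryonic kidney line, in which a FLAG-tagged protein was stably carried and induced with doxycycline. The background libraries were from cells with FLAG-GFP, which is not known to bind RNA, and were cut from the gel as slices near 20 kDa (G20), 35 kDa (G35) and 45 kDa (G45). The HuR libraries were 2 replicates from cells with FLAG-HuR, and both kinds were purified with the FLAG M2 antibody. Total was RNA of a lysate that had also received 4SU, UV light and RNase T1 but no immunoprecipitation, with proteinase K digestion and removal of rRNA by RiboZero. There was 1 library for each slice and 1 for Total, and the replicates of HuR are labelled only as replicates, so p-values below measure the spread between these samples, which may be technical.

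HuR (ELAVL1) binds U-rich and AU-rich stretches, in the 3'UTR of mature mRNAs and in introns of their precursors, and is known for stabilizing the mRNAs it binds. The IGF2BP proteins are oncofetal mRNA-binding proteins that protect their targets from decay, and IGF2BP1 mRNA is itself a textbook target of the let-7 miRNAs. QKI recognizes the sequence ACUAAY and acts in splicing, mRNA stability and the formation of circular RNAs, and its transcripts end in alternative last exons with different 3'UTRs.

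The libraries held between 6187300 (G35) and 38644636 (G20) reads at sites. G20 stood apart, since 96.0% of its reads in protein-coding genes were intronic, with 8.69 conversion events per 100 reads there. HuR replicate 1 was shallow, and 1258 of its 1854 sites in these 4 genes held a single read, against 248 of 3180 in HuR replicate 2. Values are therefore given by library, as reads and as RPM, that is reads scaled to the reads at all sites of the library. An absence of reads allows up to 3 reads, which is 0.0776 RPM in G20, 0.485 in G35, 0.398 in G45, 0.315 in HuR replicate 1, 0.0934 in HuR replicate 2 and 0.0835 in Total. Such limits, and the intervals below, cover counting error only.

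All 4 genes had higher RPM in both HuR libraries than in any slice. IGF2BP1 had 11.9, 21.0 and 15.1 RPM in the slices (here and below in the order G20, G35, G45), 57.0 and 152 in HuR replicates 1 and 2, and 102 in Total. IGF2BP2 had 6.08, 17.0 and 15.5 RPM in the slices, 113 and 334 in the HuR replicates, and 69.6 in Total. IGF2BP3, the gene with the fewest reads in G20 and Total, had 3.75, 10.3 and 14.6 RPM in the slices, 73.4 and 209 in HuR, and 31.1 in Total. For QKI the values were 6.0, 14.2 and 18.3 RPM in the slices, 83.8 and 298 in HuR, and 62.4 in Total. The groups did not overlap for any of the 4, which was the case for 59% of the 16870 genes with at least 10 reads in these 5 libraries, and 1.54% had both HuR values below all slices. The lower HuR replicate was above the highest slice by 2.71-fold for IGF2BP1, the smallest gap of the 4, and by 4.58-fold for QKI, 5.03-fold for IGF2BP3 and 6.69-fold for IGF2BP2. Total lay between the HuR replicates for IGF2BP1 and below both of them for the other genes. The plot of reads by library shows this order for each gene. Without replicates of the slices or Total, neighbouring values in it cannot be ranked beyond their spread.

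**Figure D1:**
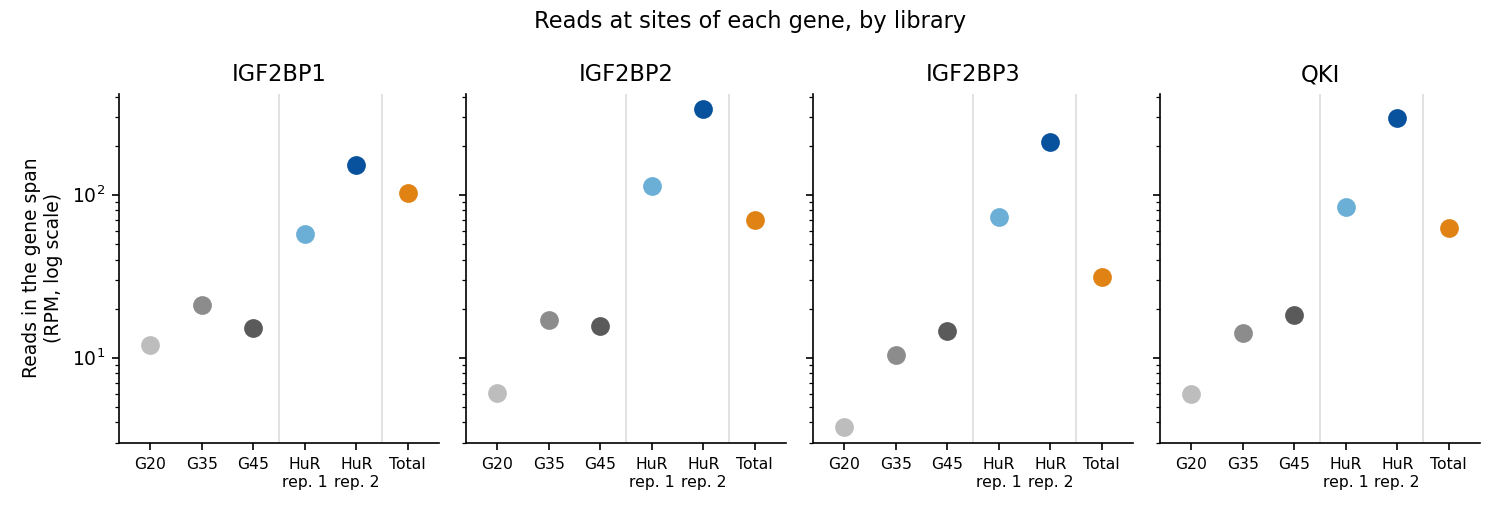
Reads at sites of IGF2BP1, IGF2BP2, IGF2BP3 and QKI in RPM on a log axis, a point for each of the 6 libraries. In all 4 panels both HuR points (57.0 to 334 RPM) lie above the 3 slices (3.75 to 21.0 RPM), and only in IGF2BP1 does Total (102 RPM) lie between the HuR replicates.

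Tested across the transcriptome, none of the 4 genes passed. In edgeR's quasi-likelihood test of the HuR replicates against the slices, with TMM scaling, 34 of 13215 genes were called higher in HuR (0.257%) and 304 lower (2.3%) at an adjusted p under 0.05, and 0 of the 4 genes were among them. IGF2BP2 had a log2 fold change of 1.81 ± 0.66 (SE) and an edgeR adjusted p of 0.111. IGF2BP3 had 1.65 ± 0.64 with an adjusted p of 0.123, and QKI had 1.56 ± 0.66 with an adjusted p of 0.152 in the same edgeR fit. The QKI value was 0.86 without HuR replicate 2 and 2.21 without HuR replicate 1. Unadjusted, these 3 genes were under 0.05 (0.0130, 0.0181 and 0.0298 in the edgeR fit), which held for 11.2% of genes in the direction of HuR. IGF2BP1 was near 0, at 0.19 ± 0.68 with an edgeR adjusted p of 0.875. The calls depended on the tool and the scaling. DESeq2 called IGF2BP2 alone, with an adjusted p of 0.0472, and called 3.31% of 11675 genes higher in HuR. With library totals in place of TMM, the median of all genes moved from -0.06 to 2.15 on the log2 scale, and IGF2BP2 (4.13), QKI (3.90) and IGF2BP3 (3.89) were called along with 37.9% of all genes, while IGF2BP1 (2.70) was not.

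Where in the gene the reads lay separated IGF2BP1 and QKI from the other two. In IGF2BP1 the 3'UTR held 282 of 543 reads in HuR replicate 1 (51.9%, 95% Wilson interval 47.7 to 56.1) and 2664 of 4870 in replicate 2 (54.7%, 53.3 to 56.1). In QKI it held 243 of 798 (30.5%, 27.4 to 33.7) and 3094 of 9559 (32.4%, 31.4 to 33.3). These shares agreed closely between the HuR replicates, with SDs of 1.96 and 1.36 percentage points. In IGF2BP2 the 3'UTR held only 10 of 1081 reads (0.925%) and 208 of 10733 (1.94%), and in IGF2BP3 14 of 699 (2.0%) and 115 of 6726 (1.71%). Introns held 98.8% and 97.5% of the HuR reads of IGF2BP2, and 94.3% and 91.7% of those of IGF2BP3. Coding sequence was nearly empty in HuR, with 3 and 35 reads in IGF2BP1, 2 and 23 in IGF2BP2, 0 and 23 in IGF2BP3, and 4 and 47 in QKI.

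The slices gave a different and more variable picture. IGF2BP1 had 58.1%, 50.8% and 40.4% of its slice reads in the 3'UTR, and coding sequence added 20.8%, 17.7% and 14.0%. QKI had 15.1%, 60.2% and 43.5% there, on 35, 53 and 60 reads, and G20 had 36.2% of its QKI reads in the 5'UTR. The mean 3'UTR share in HuR differed from that in the slices by 3.57 percentage points in IGF2BP1, 0.155 in IGF2BP2, -0.265 in IGF2BP3 and -8.19 in QKI. By two-sided exact permutation tests of 2 against 3 libraries, the p was 0.8 for IGF2BP1 and QKI and 1 for IGF2BP2 and IGF2BP3, and 1 for each after adjustment over the 4 tests, where the smallest p this design allows is 0.2. In Total the 3'UTR share was 61.9% for IGF2BP1, 43.3% for QKI, 2.64% for IGF2BP2 and 3.57% for IGF2BP3. Coding sequence held 23.7% of the Total reads of IGF2BP1 and 15.6% of those of QKI. Intronic reads were thus the larger part of IGF2BP2 and IGF2BP3 in all 6 libraries.

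**Figure D2:**
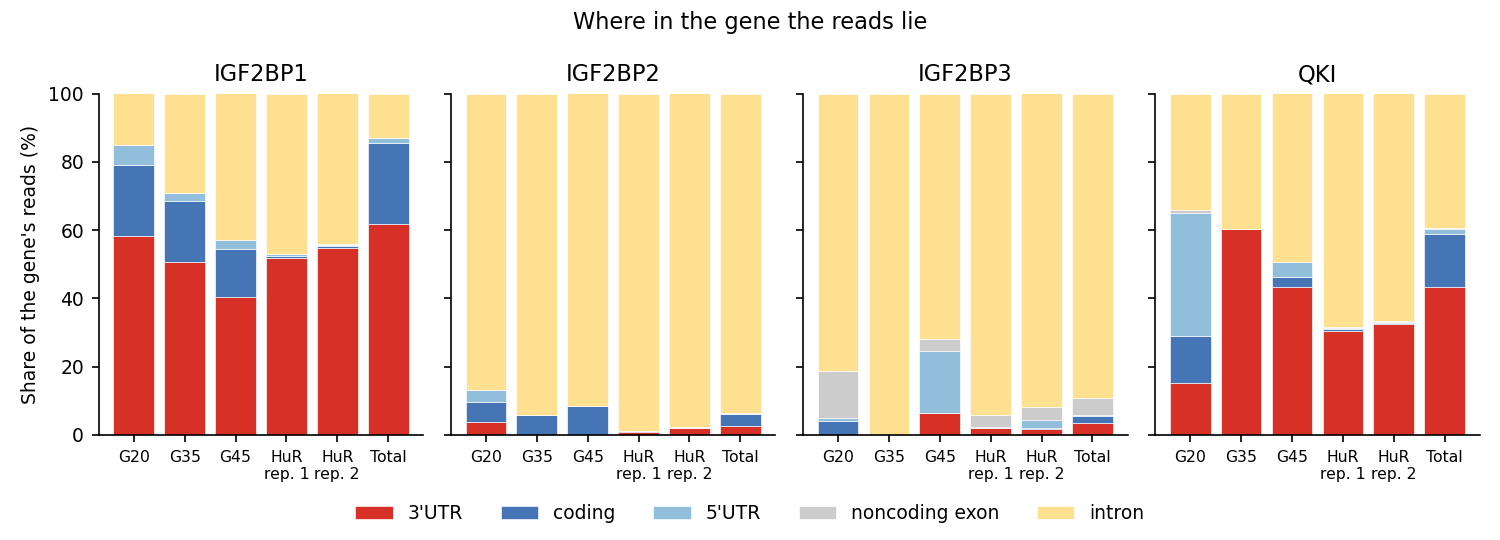
Share of each gene's reads (%) by part of the gene (UTRs, coding sequence, noncoding exons and introns), a stacked bar for each of the 6 libraries. IGF2BP2 and IGF2BP3 are mostly intron in every bar, and coding sequence is seen in IGF2BP1 in the slices and Total (14.0% to 23.7%) but not in HuR (0.553% and 0.719%).

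IGF2BP1 coding sequence went the other way from its 3'UTR and introns. It had 2.48, 3.72 and 2.12 RPM in the slices and 24.2 in Total, but 0.315 and 1.09 in the HuR replicates, so that both HuR values were below all 3 slices. That held for 15.4% of 10624 genes with at least 10 reads in coding sequence. The 5'UTR of IGF2BP1 was not higher in HuR either. It had 0.725, 0.485 and 0.398 RPM in the slices and 0.315 and 0.436 in HuR, on 3 and 14 HuR reads. For the coding sequence of the other 3 genes HuR and slices overlapped. In introns the HuR values were above all slices for 4 of 4 genes, against 66.6% of 15219 genes (0.283% below), and in the 3'UTR for 4 of 4, against 61% of 10059 genes (1.38% below).

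Per length, the introns of the 4 genes were alike in HuR and the 3'UTRs were not. Reads per kilobase of intron in HuR replicate 2 were 1.36 RPM per kb in IGF2BP1, 1.85 in IGF2BP2, 1.27 in IGF2BP3 and 1.35 in QKI, and in replicate 1 they were 0.545, 0.635, 0.456 and 0.389. Per kilobase of 3'UTR, HuR replicate 2 had 12.4 RPM per kb in IGF2BP1, 6.83 in QKI, 2.69 in IGF2BP2 and 1.66 in IGF2BP3. Replicate 1 had 4.42, 1.81, 0.437 and 0.682. On these annotated lengths IGF2BP1 and QKI kept the first and the second place in both replicates, while IGF2BP2 and IGF2BP3 exchanged theirs on 10 and 14 reads. The place of QKI depends on the length used, which was 14105 bp over all its transcripts. The first 3250 bases of its last exon alone held 146 of 243 3'UTR reads in replicate 1 and 1751 of 3094 in replicate 2. Total showed the same first and second place, with 9.43 RPM per kb of 3'UTR in IGF2BP1 and 1.91 in QKI, then 0.764 in IGF2BP2 and 0.516 in IGF2BP3. Its coding sequence had 14.0, 8.42, 1.36 and 0.369 RPM per kb in IGF2BP1, QKI, IGF2BP2 and IGF2BP3. In these reads a larger amount of RNA and more binding to each RNA cannot be told apart. Total, a single library, gives a ratio to set HuR against, but that ratio also differs by part of the gene. Over genes with at least 50 Total reads there, its median in HuR replicates 1 and 2 was 2.13 and 4.74 in introns. In coding sequence it was 0.0754 and 0.126.

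**Figure D3:**
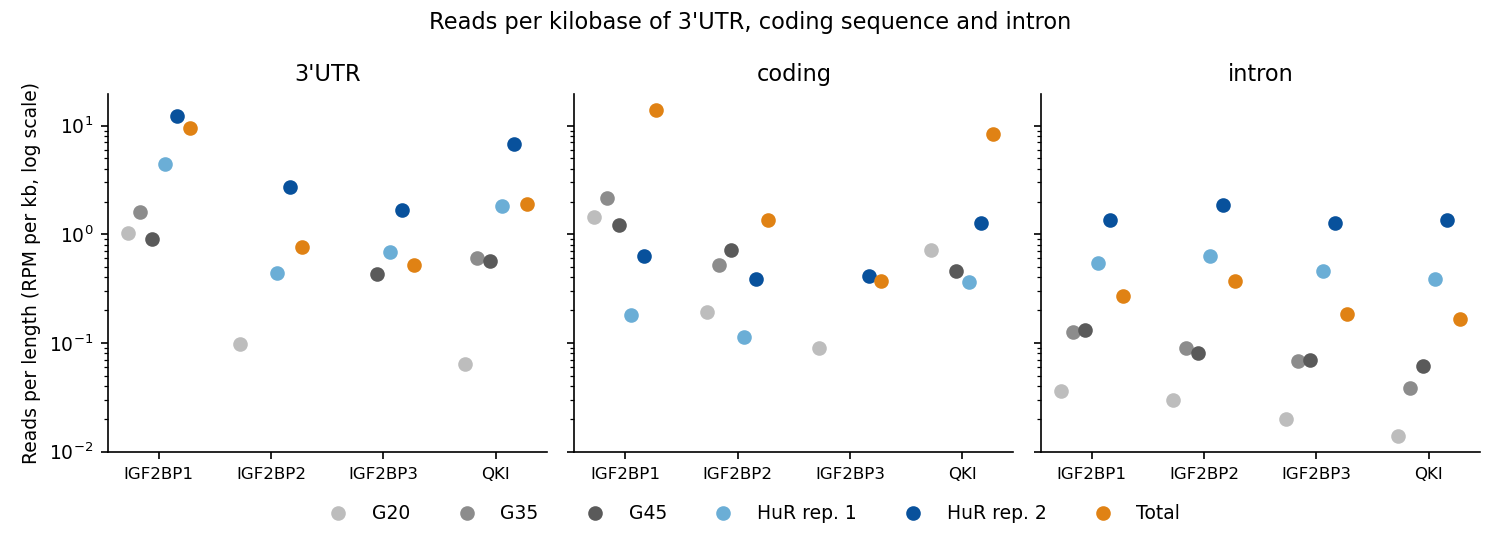
Reads per kilobase (RPM per kb, log axis) of 3'UTR, coding sequence and intron for the 4 genes, a point for each library. Regions with no reads are not drawn. In HuR replicate 2, intron points lie between 1.27 and 1.85 RPM per kb across genes and 3'UTR points between 1.66 and 12.4, while in G35 intron points run from 0.0384 to 0.125 and the drawn 3'UTR points from 0.607 to 1.59.

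Set against Total, the 4 genes stood in another order. Over the whole gene, HuR replicate 1 over Total was 0.558 for IGF2BP1, 1.34 for QKI, 1.63 for IGF2BP2 and 2.36 for IGF2BP3, and replicate 2 over Total was 1.48, 4.77, 4.80 and 6.72. The mean of the replicates was 1.02 ± 0.655 (SD, n = 2) for IGF2BP1 and 4.54 ± 3.09 for IGF2BP3, and the highest replicate of IGF2BP1 was below the lowest of IGF2BP3. The replicates of IGF2BP2 also lay above those of IGF2BP1 and overlapped with IGF2BP3, while those of QKI overlapped with all 3 others. That overlap sets unlike libraries side by side, since all genes share each HuR library. Within each replicate the order was the same, from IGF2BP1 through QKI and IGF2BP2 to IGF2BP3, with QKI and IGF2BP2 close in replicate 2. With introns left out, the mean of IGF2BP2 was 0.967 in place of 3.22. Within a replicate the genes can be ranked among the 11171 genes with at least 50 Total reads, whose median ratio was 1.15 in replicate 1 and 2.43 in replicate 2. IGF2BP3 was at percentile 82.5 in replicate 1 and 94.2 in replicate 2, IGF2BP2 at 67.1 and 83.0, QKI at 57.2 and 82.8, and IGF2BP1 at 25.2 and 33.0. In the 3'UTR alone QKI was at percentile 81.6 and 83.9 of 5837 genes, IGF2BP2 at 60.7 and 83.5, and IGF2BP1 at 51.2 and 47.3, near the median. In introns IGF2BP1 was at percentile 45.5 and 55.0 of 8212 genes, IGF2BP2 at 32.3 and 54.3, IGF2BP3 at 64.0 and 79.3, and QKI at 58.2 and 88.3. IGF2BP3 had 40 reads in the 3'UTR of Total and was not ranked there.

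In the fit on 3'UTR reads alone, edgeR tested 4013 genes and called 0 in either direction, with 772 under an unadjusted p of 0.05 (5.66% of genes in the direction of HuR) and 466 called by DESeq2. IGF2BP1 had a log2 fold change of -0.41 ± 0.75 (SE) with an edgeR adjusted p of 0.806, and its sign turned under 6 of the alternatives. QKI had 0.68 ± 0.64 with an adjusted p of 0.603 in that edgeR fit, against a median of 0.17 over all genes tested, and it ran from 0.24 without G20 to 1.36 without HuR replicate 1. IGF2BP2 and IGF2BP3 had too few 3'UTR reads to pass the filter on low counts. Their 3'UTRs had 9, 0 and 0 slice reads in IGF2BP2 and 0, 0 and 7 in IGF2BP3.

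The long 3'UTR of IGF2BP1 carried HuR reads along its whole length. Of 27 bins of 250 bases, 26 held reads of HuR replicate 1 and 27 reads of replicate 2, and sites of replicate 2 covered 49.5% of its bases. The largest bin of replicate 2 was between 3501 and 3750 bases past the stop codon, with 631 reads against 30 in replicate 1. Of these, 618 and 22 came from a site of 49 bases at chr17:47130399-47130447, 3620 bases past the stop codon. That site also had the highest RPM of the gene summed over the slices, with 35, 11 and 6 reads, though other sites held more in G20 (49 reads) and G45 (8), and it held 20 reads in Total. Its conversion events per 100 reads were 108 in HuR replicate 2, 100 in replicate 1, 40.0, 54.5 and 117 in the slices and 15 in Total. The site with the highest RPM in its lower HuR replicate was a longer one of 215 bases at chr17:47129281-47129495, with 35 and 217 HuR reads, 24, 3 and 2 in the slices, and 137 in Total. Both therefore had reads in all 6 libraries. Within each site, the cluster with the most HuR replicate 2 reads (a cluster being the narrower interaction region that the authors' software called) is shown, cut to at most 30 bases, to let its base content be seen, with runs of 5 or more T and the pentamer ATTTA in capitals.
IGF2BP1, chr17:47130416-47130445, plus strand: agagccaTTTTTaaggacagggagttttat
IGF2BP1, chr17:47129395-47129424, plus strand: ggggcaggggatatggggacgtgactggga
The first holds a run of T and the second has neither motif and is 13.3% T.

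Other parts of the IGF2BP1 3'UTR differed between HuR and the slices. Between 5751 and 6000 bases past the stop codon HuR replicate 2 had 286 reads and replicate 1 had 10, with 8, 2 and 0 in the slices. In the first 250 bases the slices had 54, 8 and 5 reads, Total had 193, and HuR had 5 and 16. Total was highest between 4251 and 4500 bases, with 289 reads, where HuR had 1 and 16.

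**Figure D4:**
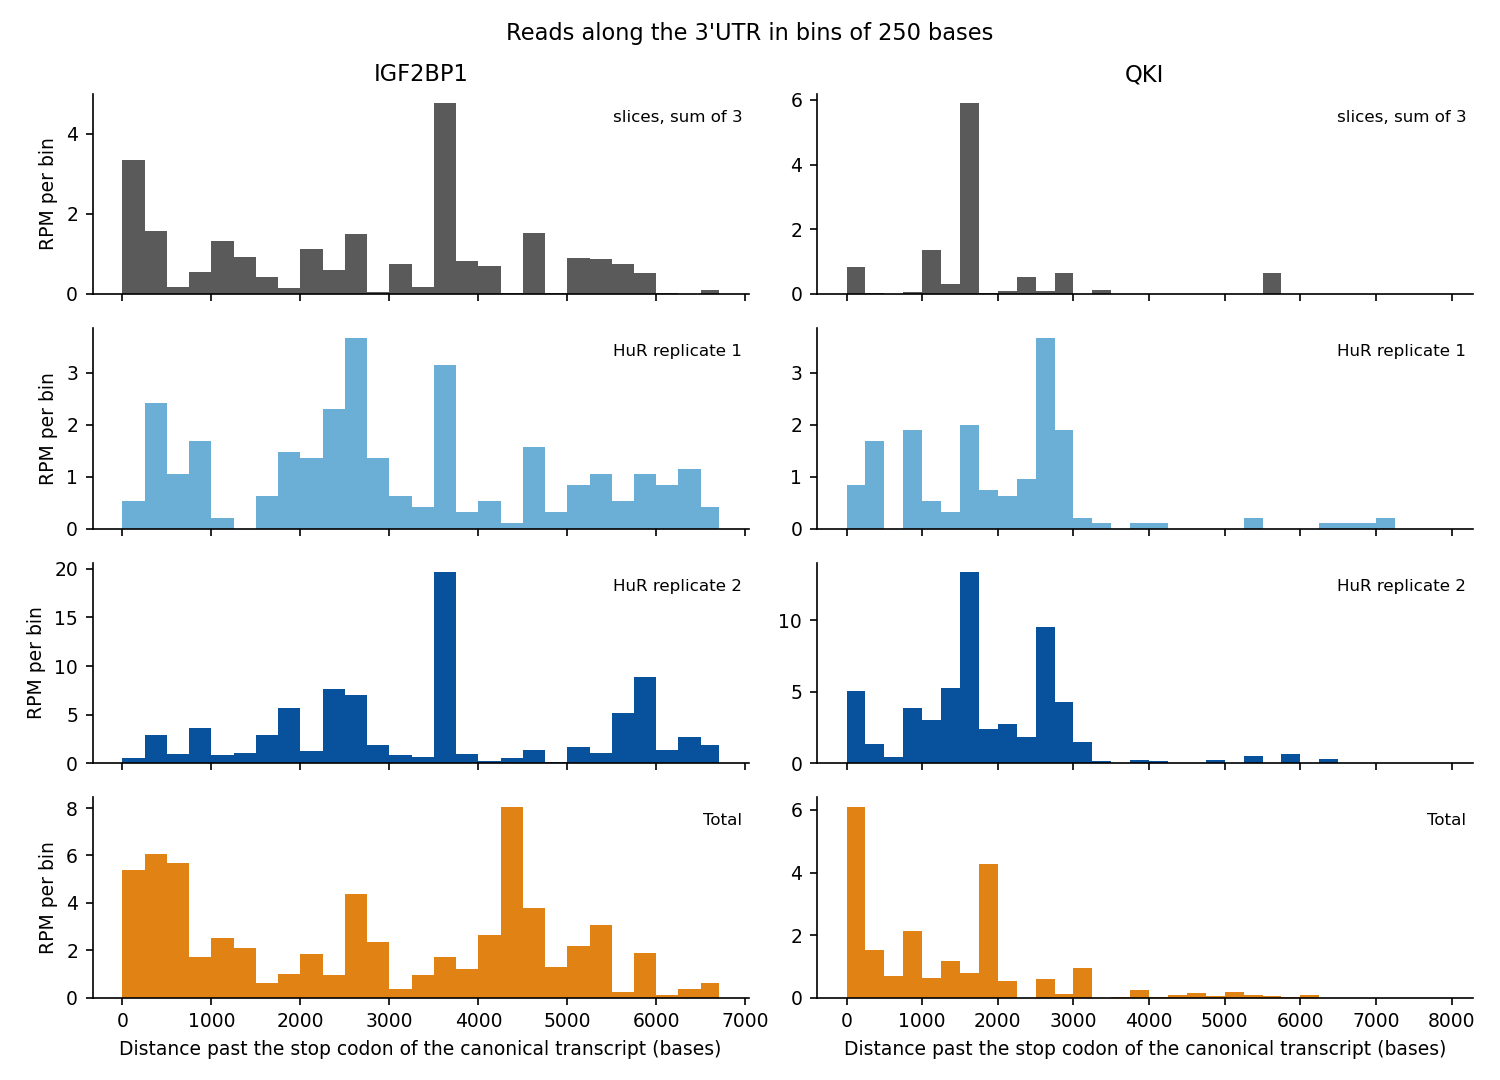
Reads (RPM per bin of 250 bases) against distance past the stop codon of the canonical transcript for IGF2BP1 (left) and QKI (right), with the sum of the 3 slices, HuR replicates 1 and 2, and Total in rows that have their own linear axes. Reads of IGF2BP1 reach its last bin, and reads of QKI nearly end by 3250 bases.

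In the last exon of QKI, most 3'UTR reads lay within 3250 bases of the stop codon. The largest bins there were at 2501 to 2750 bases in HuR replicate 1 (35 reads) and 1501 to 1750 in replicate 2 (429 reads). In the last exon of the canonical transcript, which is 7.88 kb of 3'UTR, the first 3250 bases held 93.6% of 156 reads in HuR replicate 1, 96.1% of 1822 in replicate 2 and 94.9% of 740 in Total, and 27 of 27, 23 of 27 and 41 of 42 reads in the slices. Reads thus became sparse past that point in all 6 libraries. The 3'UTRs that belong to other transcripts lie upstream of this exon, span 6.22 kb, and are partly intron to the canonical transcript. They held 35.8% and 41.1% of the 3'UTR reads of HuR, and 23.6% of those of Total. Per length they had 1.47 and 6.37 RPM per kb in HuR against 2.08 and 7.2 in the last exon, and 1.02 against 2.61 in Total.

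The 2 3'UTR sites of QKI with the highest RPM in their lower HuR replicate had few or no background reads, but a site with more reads in HuR replicate 2 alone had 30 in G45. At chr6:163994321-163994437, 2640 bases past the stop codon, HuR had 19 and 146 reads, G20 had 3, and G35 and G45 had 0. At chr6:163994706-163994752, 2990 bases past the stop codon, HuR had 18 and 107 reads and the 3 slices had 0. Total had 3 reads at the first and 1 at the second. That site, which had the highest RPM summed over the slices, at chr6:163993265-163993348 and 1567 bases past the stop codon, had all its slice reads in G45, where HuR had 9 and 328 and Total 5. Its conversion events per 100 reads were 16.7 in G45 against 100 and 120 in HuR. Stretches from these sites are shown with runs of 5 or more T in capitals. Those of the sites at 2640 and 2990 bases are from HuR replicate 2 clusters, cut to at most 30 bases, and the last is from the cluster called in G45.
QKI, chr6:163994373-163994402, plus strand: tcgcttgtatgttatcgtacagctgacatg
QKI, chr6:163994706-163994735, plus strand: aatacattagacacttttgggttttagttg
QKI, chr6:163993298-163993323, plus strand: ttttgTTTTTTgTTTTTaattaattg
Among these stretches the one called in G45 had the longest run of T. Those from HuR replicate 2, at sites with few or no slice reads, held neither TTTTT nor ATTTA. They come from different libraries and cover only part of each site, so whole sites were not compared.

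QKI protein is known to bind ACUAAY, and the 3'UTRs of QKI held 4 matches to ACTAAC and 6 to ACTAAT on the transcript's strand. All 4 ACTAAC matches lay under reads of HuR replicate 2 (5, 3, 18 and 6 reads in order along the gene), a single one under replicate 1 (1 read) and none under the slices. The third one also had 21 reads in Total. Of the ACTAAT matches, 1 lay under HuR replicate 2 and 2 under Total. Sites of HuR replicate 2 covered 29.5% of the bases of the QKI 3'UTRs, and those of the slices together 5.86%. The part of this coverage in these counts was not tested. The ACTAAC matches are shown with the motif in capitals.
QKI, chr6:163988556-163988583, plus strand: tataatttttgACTAACctgtgactgga
QKI, chr6:163989044-163989071, plus strand: atgtattcatcACTAACagtgattgttc
QKI, chr6:163994817-163994844, plus strand: aataccaacctACTAACtctggactttg
QKI, chr6:163994910-163994937, plus strand: tgagttactggACTAACcctgaagaacg
These letters mark a sequence match only. IGF2BP1 had no ACTAAC and 1 ACTAAT match in its 3'UTR, 481 bases past the stop codon, with 4 and 28 HuR reads, 3 in G35, 6 in G45 and 7 in Total. IGF2BP2 and IGF2BP3 had 2 ACTAAC matches each, in 1.68% and 1.88% of windows of 25 bases against 0.573% in the 3'UTRs of QKI. A single one of these, in IGF2BP3, lay under HuR reads (1 and 5).

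The introns of IGF2BP2 and IGF2BP3 carried nearly all of their HuR reads, spread over many sites. HuR replicate 2 had 1051 intronic sites in IGF2BP2 and 790 in IGF2BP3, and replicate 1 had 646 and 448. The longest intron of IGF2BP2, intron 2 with 124.8 kb, held 77.2% of the intronic reads of replicate 1 and 84.2% of those of replicate 2, against 71.6% in Total. In IGF2BP3, introns 2 and 3 held 27.6% and 47.8% of the intronic reads in replicate 1, and 31.7% and 49.2% in replicate 2. Reads per length still differed along IGF2BP2 in HuR replicate 2, with 2.20 RPM per kb in intron 2 and 1.95 in intron 10, but 0.444 in intron 12 and 0.207 in intron 13. In replicate 1 the range was narrower, with 0.693, 0.802, 0.410 and 0.451 in these introns. Intron 13 was the reverse case, since G45 (0.726 RPM per kb) and G35 (0.568) were above both HuR replicates (0.451 and 0.207). All reads of G35 and G45 there came from the site with the highest summed slice RPM in the gene, chr3:185369643-185369666, with 4, 9 and 14 slice reads, 6 and 4 in HuR, and 0 in Total. It had 100 conversion events per 100 reads in each slice.

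The intronic site with the highest RPM in its lower HuR replicate, a site chosen after the values were seen, was chr3:185535353-185535431 in IGF2BP2, with 9 and 184 HuR reads, 1 in G20, 0 in G35 and G45, and 1 in Total. Its counterpart in IGF2BP3 was chr7:23486191-23486229, with 7 and 33 HuR reads, 4 in G35, and 0 in G20, G45 and Total. In QKI it was chr6:163962033-163962096, with 12 and 171 HuR reads, 2 in Total and 0 in the slices, and in IGF2BP1 chr17:47111093-47111133, with 6 and 18 HuR reads, 2 in G20 and 4 in Total. Of these intronic sites, those of IGF2BP2 and QKI were the stronger. Their clusters with the most HuR replicate 2 reads are shown beside the IGF2BP2 background site.
IGF2BP2 intron 2, chr3:185535374-185535403, minus strand: gcatggactctatgggttctattttaggca
IGF2BP3 intron 2, chr7:23486199-23486228, minus strand: tttctacttctctttaTTTTTTctacattt
QKI intron 4, chr6:163962055-163962084, plus strand: aggtttagttttacttggggacattttaaa
IGF2BP2 intron 13, background site, chr3:185369644-185369663, minus strand: atctgttggtgcccagttcg
Only the IGF2BP3 stretch of these holds a run of 5 or more T.

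The 3'UTRs of IGF2BP2 and IGF2BP3 had 2 and 5 merged sites with reads in both HuR replicates. In IGF2BP2 these were chr3:185362717-185362737, with 3 and 45 HuR reads, 4 in Total and 0 in the slices, and chr3:185362533-185362706, with 4 and 14 HuR reads, 4 in G20 and 23 in Total. The largest single 3'UTR site of IGF2BP2, with 109 reads in HuR replicate 2, had no reads in replicate 1. In IGF2BP3 the strongest was chr7:23351413-23351434, with 5 and 37 HuR reads, 26 in Total and 0 in the slices, which was also the site of the gene with the most Total reads. The next, chr7:23350227-23350259, had 2 and 9 HuR reads and none in the other libraries. At this depth 0 reads in G45 still allow 0.398 RPM, close to the 0.525 RPM that 5 reads are in HuR replicate 1.

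IGF2BP3 also had reads at its 5′ end. Within the first 250 bases of the gene, HuR replicate 2 had 111 reads, G45 had 20, replicate 1 had 3, G20 and Total had 1 each, and G35 had 0. Most were at a 5'UTR site, chr7:23509912-23509957, with 96 reads in HuR replicate 2, 20 in G45 and 2 in HuR replicate 1. It was the site with the highest summed slice RPM in this gene, and its 20 reads made up 18.2% of all IGF2BP3 reads in G45. Its conversion events per 100 reads were 30 in G45 and 108 in HuR replicate 2. The stretch below, from the cluster called in G45, is rich in T and C, with the run of T in capitals.
IGF2BP3, chr7:23509923-23509952, minus strand: cTTTTTcttttctttctcttttaaaacaca
The same window had 10 reads or fewer in each HuR replicate and slice for the other genes, except 15 in G20 for IGF2BP1.

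IGF2BP1, IGF2BP2 and IGF2BP3 hold matches to the seed of let-7 in their 3'UTRs, and these matches were seen very unequally. The let-7 family represses developmental and oncofetal mRNAs through this seed. In let-7a-5p, from RefSeq on GRCh38.p14, the seed at bases 2 to 8 is in capitals.
let-7a-5p: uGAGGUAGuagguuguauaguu
Its reverse complement, CTACCTC, occurred at 4 places in the 3'UTR of IGF2BP1, at 1 in IGF2BP2, at 1 in IGF2BP3 and at 0 in QKI. It was found in 1.14% of windows of 25 bases in the IGF2BP1 3'UTR and in 0.117% of those in its introns. The matches are shown in capitals, those of IGF2BP1 in order along the 3'UTR.
IGF2BP1, chr17:47128427-47128455, plus strand: tgcgaagtaaaCTACCTCaaggtatgaag
IGF2BP1, chr17:47131064-47131092, plus strand: agtgctagtaaCTACCTCacagagcccca
IGF2BP1, chr17:47131718-47131746, plus strand: aaatggattaaCTACCTCaatccttacag
IGF2BP1, chr17:47132363-47132391, plus strand: ttttgttttatCTACCTCttagcaaaaca
IGF2BP2, chr3:185361998-185362026, minus strand: cacagaagaagCTACCTCaggtgttttta
IGF2BP3, chr7:23351404-23351432, minus strand: tttttactcaaCTACCTCaggtattcagt
The second match of IGF2BP1, 4272 bases past the stop codon, had 203 reads in Total, 1 in G20 and 0 in both HuR replicates. The fourth, 5571 bases past the stop codon, had 3 and 50 HuR reads, 4 in G35 and 7 in Total. The first had 5 reads in HuR replicate 2 alone and the third 20 reads in Total alone. In IGF2BP3 the match lay in the strongest HuR site of the 3'UTR (5, 37 and 26 reads in the HuR replicates and Total), and in IGF2BP2 it had 5 reads in Total and none in the other libraries. Reads here show RNA recovered over the match, and no library isolated a miRNA complex.

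HuR sites that shared bases with background took a larger share in 3'UTRs than in introns, in these genes as over all genes. Among HuR sites with 5 or more reads, and with 1 shared bp on the same strand as the criterion, 27 of 82 sites in replicate 1 (32.9%, 95% Wilson interval 23.7 to 43.7) and 200 of 1862 in replicate 2 (10.7%, 9.41 to 12.2) overlapped a site of a slice. Over all protein-coding genes the shares were 39.1% and 9.88%. In the 3'UTR of the 4 genes they were 16 of 32 and 61 of 183 (33.3%), and in introns 11 of 50 (22.0%) and 132 of 1640 (8.05%), against 52.0% and 22.6% of 3'UTR sites and 34.9% and 7.87% of intron sites over all genes. IGF2BP1 had the largest of these 3'UTR shares in HuR replicate 2, where 37 of 67 3'UTR sites overlapped background (55.2%, 43.4 to 66.5), against 22 of 100 in QKI (22.0%, 15 to 31.1) and 22.6% over all genes. These sites held 74.7% of the 3'UTR reads at such sites in IGF2BP1 and 41.5% in QKI. The slices together covered 33.0% of the bases of the IGF2BP1 3'UTR and 5.86% of those of QKI, which moves with this difference, and its part in the result was not tested. In replicate 1 the shares were 10 of 19 in IGF2BP1 (52.6%) and 6 of 12 in QKI, near the 52.0% over all genes.

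Read from the background, between 48.0% and 70.7% of the slices' sites in these genes shared bases with HuR replicate 2, and between 38.2% and 43.2% with Total. By gene the share found in HuR replicate 2 was 54.3%, 82.1% and 74.3% of the slices' sites for IGF2BP1, and 38.6%, 57.1% and 35.5% for IGF2BP3. Of 433 sites in G20, 53 met a site of another slice, as did 37 of 92 in G35 and 52 of 136 in G45, and 9, 8 and 9 met sites of both. In IGF2BP1 20 of 28 sites in G35 and 23 of 35 in G45 met another slice. Positions seen in all 3 slices numbered 3 in the 3'UTR, 1 in the 5'UTR and 1 in the introns of IGF2BP1, 3 in introns of IGF2BP2, 1 in the 3'UTR and 1 in introns of QKI, and 0 in IGF2BP3. The HuR replicates met each other more often in 3'UTRs, where 148 of 187 sites of replicate 1 (79.1%) overlapped a site of replicate 2, than in introns, with 840 of 1638 (51.3%). For Total the corresponding shares were 67.9% and 30.7%. HuR replicate 2 sites covered 49.5% of 3'UTR bases and 14.7% of intron bases in IGF2BP1, and 29.5% and 13.5% in QKI. In IGF2BP2 they covered 13.5% and 16.5%, and in IGF2BP3 16.1% and 14.0%. The part of this coverage in the agreement of the replicates was not tested.

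Conversion events per read were higher in the HuR libraries than in G20 and Total in each of the 4 genes. IGF2BP1 had 88.8 and 104 events per 100 reads in HuR, 24.1, 70.8 and 74.6 in the slices, and 17.3 in Total. IGF2BP2 had 97.4 and 105 in HuR, 35.3, 91.4 and 71.8 in the slices, and 21.8 in Total. IGF2BP3 had 98.7 and 102 in HuR, 31.0, 85.9 and 56.4 in the slices, and 20.7 in Total. For QKI the values were 95.9 and 106 in HuR, 26.7, 64.8 and 43.5 in the slices, and 22.1 in Total. Over all protein-coding genes there were 62.3 and 97.2 in HuR, 9.21, 54.1 and 46.9 in the slices, and 26.2 in Total. HuR was thus above every slice over all genes too. It was above every slice in each of the 4 genes, and IGF2BP2 in G35 came closest. With clusters in place of groups this order did not hold for 3 genes, since G45 had 115 in IGF2BP1 against 92.4 and 103 in HuR, G35 had 119 in IGF2BP2 against 114 and 103, and G35 had 100 in IGF2BP3 against 88.6 and 102. Over the 4 genes together HuR had 100.1 ± 6.07 events per 100 reads (SD, n = 2). HuR sites that overlapped background had 104 events per 100 reads against 105 at the other sites in replicate 2, and 95.5 against 103 in replicate 1. More than 1 event can fall in a read, so these values can pass 100.

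**Figure D5:**
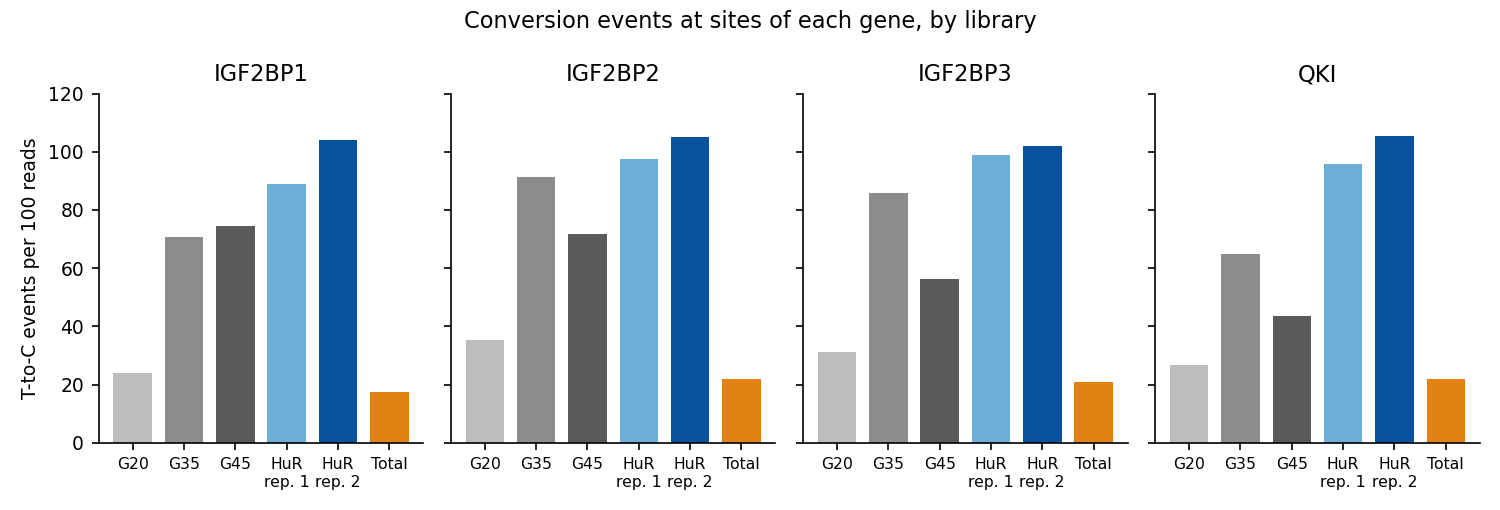
T-to-C conversion events per 100 reads at sites of each of the 4 genes, a bar for each library. The HuR bars reach 88.8 to 106, G20 and Total stay between 17.3 and 35.3, and G35 and G45 lie between.

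Intronic sites of HuR replicate 2 held more T than the introns themselves in all 4 genes. The shares ran from 34.8% against 28.6% in IGF2BP1 to 42.2% against 33.7% in QKI. This was not particular to HuR, since G45 sites also exceeded the introns in all 4 genes. They were 34.5%, 34.3%, 39.4% and 45.3% T in IGF2BP1, IGF2BP2, IGF2BP3 and QKI, on 6, 9, 6 and 4 sites. G35 sites held more T than the introns only in IGF2BP3 (32.9%, 7 sites) and QKI (55.6%, 1 site). G20, with 1 site each in IGF2BP2 and QKI, held less. Motifs were searched on the transcript's strand only, in sites with 5 or more reads, and TATTTA includes ATTTA. In HuR replicate 2, TTTTT was found in 24.0% of 183 3'UTR sites and 26.0% of 1640 intron sites of the 4 genes, close to the 26.7% and 27.0% over all genes. In Total it was found in 10.6% of 113 3'UTR sites and 5.73% of 227 intron sites. In the slices the 3'UTR shares were 5.56% of 18 sites in G20, 25% of 12 in G35 and 55.6% of 9 in G45, and over all genes 7.49%, 24.7% and 37.3%. G45 was thus above HuR replicate 2 in 3'UTRs, on few sites in these genes, and G35 was near it. In introns they were lower, with 15.8% of 19 sites in G35 and 16.0% of 25 in G45, and over all genes 13.8% and 18.8%. HuR replicate 1 held TTTTT in 20.0% of 50 intron sites of the 4 genes and in 16.0% over all genes, which is below G45. Windows of 25 bases, slightly shorter than the median HuR site, held TTTTT in 6.66% of the IGF2BP1 3'UTR, 9.66% of IGF2BP2, 18.1% of IGF2BP3 and 11.5% of QKI, and in 6.56% to 10.4% of their introns. By gene, intronic HuR replicate 2 sites held it in 20.3% (IGF2BP1), 23.5% (IGF2BP2), 25.9% (IGF2BP3) and 31.4% (QKI). ATTTA was in 14.9% of the intronic HuR sites of QKI and 10% of those of IGF2BP3, and its windows in the introns of QKI (6.24%) also exceeded those of IGF2BP3 (4.44%).

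The bases under 3'UTR sites differed between IGF2BP1 and QKI, as did the 3'UTRs themselves. HuR replicate 2 sites there were 31.6% T and 23.8% G, and 14.9% of 67 held GGGGG (0 of 19 in replicate 1), against 39.3% T, 15.2% G and 1.00% of 100 sites in QKI and 2.95% of sites over all genes. The IGF2BP1 3'UTR itself is 28.0% T and 22.9% G and held GGGGG in 4.43% of windows, and that of QKI is 35.6% T and 17.5% G with 0.80% of windows. In Total 8.82% of 68 IGF2BP1 3'UTR sites held GGGGG. Site numbers in the slices were small, with 16, 6 and 3 such sites in IGF2BP1, and G20 sites were 30.6% G.

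The sites with the most Total reads showed what the lysate gave without selection. In IGF2BP1 it was a coding site of 21 bases, chr17:47118843-47118863, with 375 reads in Total and 0 in the other 5 libraries. In QKI it was also a coding site, chr6:163836326-163836364, with 177 reads in Total, 5 in G20, 1 in G45 and 0 in both HuR replicates. In IGF2BP2 it was an intronic site, chr3:185462739-185462755, with 39 reads in Total and 0 elsewhere. These 3 had 18.1, 2.83 and 0 conversion events per 100 reads. Each of the stretches below ends in a G, the base after which RNase T1 cuts, with no other G.
IGF2BP1 coding, chr17:47118843-47118863, plus strand: acaaaaatcaccatctcctcg
QKI coding, chr6:163836334-163836349, plus strand: atcttcaaccacctcg
IGF2BP2 intron 2, chr3:185462739-185462755, minus strand: aaacaacctaaacatcg
Total sites in introns of the 4 genes were 7.47% G, against 17.7% in HuR replicate 2 and 19.6% to 23.8% in the introns themselves.

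Genes of related function were read in the same 3'UTR fit, from lists that were chosen with earlier results of these data known. Of 31 other genes of KH-domain proteins, 15 passed the filter on low counts and 0 were called in either direction by edgeR, as over all 4013 genes tested. At an unadjusted edgeR p under 0.05, 4 were higher and 2 lower in HuR. Over all genes tested, 772 were under that p, of which 227 were higher in HuR (5.66% of the 4013). The median log2 fold change of the 15 genes was 0.68, against 0.17 over all genes tested. PCBP1, which binds C-rich RNA, had the largest, at 2.40 ± 0.96 (SE) with an edgeR adjusted p of 0.227, and its 3'UTR had 20.1 and 113 RPM in HuR against 1.29, 0.646 and 0.398 in the slices. FXR1, a relative of the fragile X protein, had 1.96 ± 0.86 with an edgeR adjusted p of 0.255. HDLBP (vigilin) had the smallest, at -3.22 ± 1.31 with an edgeR adjusted p of 0.234. Of 16 let-7 target and oncofetal genes, 8 were tested and 0 were called by edgeR, with 0 under an unadjusted p of 0.05 and a median of 0.58. NRAS, a small GTPase, had 1.06 ± 0.57 (edgeR adjusted p 0.338), DICER1, the miRNA-processing nuclease, had 1.05 ± 0.66 (0.417), and CDC25A, a cell cycle phosphatase, had -1.26 ± 0.72 (0.369). QKI (0.68) was thus at the median of the KH-domain genes and IGF2BP1 (-0.41) below that of both lists. Over whole genes 30 and 13 genes of the lists were tested and 0 were called, with medians of 0.05 and 0.92 against -0.06 over all genes.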

How the data were processed

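Libraries were single-end Illumina HiSeq reads. Per the labels' processing notes the authors aligned them with Bowtie to hg19, and their publication names PARalyzer for calling groups (all overlapping reads) and clusters. The deposited tables hold whole-number counts of reads and of T-to-C conversion events per site. Score columns deposited in the cluster tables were not used as results. Versions and any removal of PCR duplicates are not given in the sources used here. Sites were placed by midpoint and strand in GENCODE v44lift37, coding before 3'UTR, 5'UTR, noncoding exon and intron, and sites in 2 coding genes of one strand were left out. Group-table reads were summed per gene, and HuR (2 libraries) was tested against the slices (3) with edgeR 4.0.16 (R 4.3.3; TMM, filterByExpr, quasi-likelihood, Benjamini-Hochberg over all genes, threshold 0.05), with DESeq2 1.42.0 as an alternative. The SE shown with an edgeR fold change is its absolute value divided by the square root of the F statistic of the quasi-likelihood test. The slices are different gel positions, not replicates, so their spread includes that difference. The scripts were tested on simulated data. Python 3.11.15, pandas 2.3.3, scipy 1.17.1 and pysam 0.24.0 did the rest. Sites were merged where they shared 1 bp. Named are all 4 genes, per gene the 2 merged 3'UTR sites with the highest RPM in the lower HuR replicate, the site with the highest summed slice RPM and the one with the most Total reads, and from each list the 2 genes with the largest and the 1 with the smallest 3'UTR fold change. Intronic sites were added after the values were seen. The genes and lists were chosen with earlier results of these data known. The cell line was not checked against markers.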

Additional observations from a re-analysis of the deposited data

Results flagged for a closer look

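Reads on the strand opposite 3 of the 4 genes, which no comparison above used, were above every slice in both HuR replicates, as they were for 44.4% of 17173 genes with at least 10 opposite reads. Opposite IGF2BP2 there were 23.7 and 7.32 RPM in HuR against 0.699, 3.88 and 6.90 in G20, G35 and G45. Opposite IGF2BP3 there were 6.30 and 9.28 RPM against 0.414, 1.29 and 5.44. Opposite QKI there were 4.41 and 8.31 RPM against 0.595, 4.36 and 2.79. IGF2BP1 had 2.10 and 1.81 RPM, and its second replicate was below G35 at 1.94. The gaps for IGF2BP2 and QKI are small in the lower replicate. A single position gave much of the opposite reads of IGF2BP2, chr3:185406419-185406436, with 19, 16, 31 and 80 reads in G20, G35, G45 and HuR replicate 1. Without the top position of each library, IGF2BP2 had 15.3 and 6.07 RPM in HuR against at most 2.79 in a slice, IGF2BP3 had 4.20 and 8.19 against at most 2.65, and QKI had 3.88 and 7.10 against at most 1.78. The position removed was not the same in every library. For these genes it held 50% to 100% of the opposite reads in the slices and 11.7% to 35.4% in HuR. Its removal therefore lowered the slices more, and the wider gap is not a separate result. The part that IGF2BP2-AS1 and MALSU1 have in these reads was not tested.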

How the results depend on the processing

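No paired analysis was possible because only the HuR libraries carry replicate numbers. The number of genes called depended on the processing, and the cause was not tested. Over whole genes edgeR called 338, DESeq2 called 1836, RLE size factors gave 210, library totals 5089, no filter 1038, and sites with 5 or more reads or clusters gave 0 each. Leaving out 1 library gave 0 to 674 calls (G20 155, G35 579, G45 674, HuR replicate 1 gave 0 and HuR replicate 2 gave 20). In 3'UTRs, where edgeR called 0, DESeq2 called 466, library totals 2220, no filter 187 and clusters 35, and leaving out 1 library gave 0 to 31 (HuR replicate 1 gave 7 and HuR replicate 2 gave 31). Of the 4 genes, DESeq2 called 1 and library totals 3 over whole genes, and library totals called 2 in 3'UTRs, IGF2BP2 and QKI, where the median of all genes was 3.24. The sign of IGF2BP1 turned over whole genes to -0.043 with sites of 5 or more reads and -0.23 without HuR replicate 2, in a range of -0.23 to 0.70 when 1 library was left out (0.70 without HuR replicate 1). In the 3'UTR it turned to 2.83 with library totals, 0.23 without a filter, 0.39 with clusters, 0.25 without G20, 0.19 without HuR replicate 1 and 0.04 without HuR replicate 2, in a range of -0.71 to 0.25 when 1 library was left out (-0.71 without G45). None of the reversed values was called. The 3'UTR share of HuR reads over the 4 genes, 18.3%, was 33.2% in sites with 5 or more reads, 9.01% with every site counted once, and 14.9% with the QKI 3'UTR limited to its last exon, an alternative chosen after seeing the data, under which QKI went from 31.4% to 19.3%. In the mean of the HuR replicates, conversion events and overlap with background over the 4 genes moved by less than 1 SD. For the overlap that SD was wide, at 15.7 around 21.8%, and HuR sites with any read gave 10.04%. Slice values were not part of this comparison. Conversion events per 100 reads in G20, G35 and G45 went from 28.1, 77.5 and 60.8 to 29.1, 95 and 88.5 with clusters. With sites of 5 or more reads they were 17.5, 73.5 and 65.8. The HuR to Total ratio, 2.49 ± 1.77 (SD, n = 2), was 1.17 when scaled to reads in protein-coding genes and 0.976 without introns, and that of IGF2BP1 went from 1.02 to 0.484 with the first of these. The shallow slices and HuR replicate 1 limit the rest, since 3 reads were 0.485 RPM in G35 and most sites of HuR replicate 1 held a single read.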
